A study of Homo sapiens with 6 samples.

Results

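The genes described here are CGA, which encodes the alpha subunit shared by the pituitary and placental glycoprotein hormones, and 9 genes of neuroendocrine secretory granules: CHGA, CHGB, SCG2, SCG3, SCG5, VGF, PCSK1, PCSK1N and CPE. Rows were found by gene symbol, and 9 of the 10 genes had one among 18164 genes in all; SCG5 was not analysed here. The genes were chosen by values of the comparison reported here, since CGA was among the genes that differed most between the groups, so their differences between groups are a description: no p-value is given for them, and those that passed the threshold used for all genes are counted beside the share of all genes, with nothing read from the count. The data are RNA-seq of a commercially available suspension line of HEK293, an established human embryonic kidney line. In 3 libraries the cells had been transfected with a pair of plasmids by means of a polymer reagent, so that they made adeno-associated virus (AAV), and were collected 18 h later. In 3 libraries the cells were untransfected, had received PBS instead of DNA and reagent, and were collected at the same time. The untransfected cells lacked both DNA and reagent, so effects of plasmids, reagent and vector production cannot be told apart. The labels number the replicates in each group but do not say whether they were separate cultures, so the spread between them may be partly technical.

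Neuroendocrine cells store peptide hormones in dense-core granules and release them on a stimulus. Granins such as chromogranins and secretogranins are acidic proteins that aggregate with prohormones in the late Golgi and help to form the granule. Within the granule, prohormone convertases cut at pairs of basic residues and carboxypeptidase E trims the exposed ends. CGA is cargo of this pathway in pituitary cells, where it pairs with a hormone-specific beta subunit, and its promoter is a textbook target of cyclic AMP through tandem cyclic AMP response elements (CRE). HEK293 cells are not a neuroendocrine line, although they express some neuronal genes.

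The CRE was searched because CGA and several granins are known cyclic AMP targets. RefSeq promoter windows (GRCh38.p14, from 250 bases before to 50 after the transcript start) were found for 8 of the 10 genes, 9 windows in all because PCSK1 has more than 1 start. CHGB and SCG2 had no window in the reference used here, so their promoters were not searched for any motif. The exact palindrome TGACGTCA lay in the windows of 4 genes, and it is present in 1.85% of all 35116 windows (649). It is shown in capitals below, each sequence written 5′ to 3′ on the strand of the gene.
CGA, chr6:87095221-87095250, minus strand: atTGACGTCAtggtaaaaatTGACGTCAtg
VGF, chr7:101165630-101165659, minus strand: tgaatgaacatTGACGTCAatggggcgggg
CHGA, chr14:92923085-92923114, plus strand: ggcggcaccgcTGACGTCAtttccggggtc
PCSK1, chr5:96433307-96433336, minus strand: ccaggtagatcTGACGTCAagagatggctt

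CGA was the only one of these genes with 2 copies, at positions -142 to -135 and -124 to -117 from the start; 21 of all windows (0.0598%) hold 2 or more. The single copies lay at -79 to -72 in VGF, -54 to -47 in CHGA and -77 to -70 in the window of 1 PCSK1 start. CGA also holds the TATA letters TATAAA at -29 to -24, shown in capitals in the next sequence, as do VGF on the opposite strand and the other PCSK1 start; 11.5% of windows hold them on either strand.
CGA, chr6:87095118-87095147, minus strand: acactctgctggTATAAAagcaggtgagga
All these positions are counted from RefSeq starts. By the gene spans of GENCODE release 29, the CRE sequences printed for CGA, CHGA and PCSK1 lie inside the gene. The VGF sequence upstream of every exon annotated in GENCODE release 29 is given at length, with the CRE in capitals. It shows the CRE and the TATA letters (read on the opposite strand near the right end) in a GC-rich setting.
VGF, chr7:101165594-101165819, minus strand: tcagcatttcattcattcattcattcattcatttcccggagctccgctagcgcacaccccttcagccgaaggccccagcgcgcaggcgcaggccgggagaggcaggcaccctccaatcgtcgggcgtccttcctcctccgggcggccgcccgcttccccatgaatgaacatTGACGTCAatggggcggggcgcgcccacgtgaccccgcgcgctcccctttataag

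The CRE core TGACG outside a full CRE, on either strand, was found for CPE, PCSK1, CGA, SCG5 and SCG3, against 23.4% of all windows. The GATA letters AGATAA lay at -156 to -151 in CGA and were also found for SCG5 (10.3% of windows), and the AP-1 letters TGACTCA were found for PCSK1N (4.95%). The left part of the RE1 element, TTCAGCACC, at which the repressor REST binds in neuronal genes, lay just after the start of SCG3 and in 0.376% of windows. The EGR letters GCGGGGGCG were in none of the 9 windows, against 5.07% of all. Such matches are letters in a window and do not show that a factor binds there.

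The deposited values are TPM, which correct for transcript length, so levels of different genes can be set side by side; they keep no record of sequencing depth, so no counting error can be given. The 13 mitochondrial mRNAs took 27.1% to 30.0% of TPM in transfected and 30.0% to 36.4% in untransfected libraries, highest in transfected replicate 1 and untransfected replicate 3. The tested set was the 16145 genes that reached 1 TPM in 3 or more libraries, of which 3236 (20%) were called higher and 1644 (10.2%) lower in transfected cells (limma on log2(TPM + 1), Benjamini-Hochberg adjusted p under 0.05). Median-ratio scaling gave 3004 and 2871, and leaving mitochondrial and the 20 most abundant genes out of the total gave 2681 and 3216. All 3 transfected values lay above all 3 untransfected values for 29.2% of tested genes and below them for 17.3%. Without transfected replicate 2 the counts were 1973 higher and 992 lower, without transfected replicate 3 2034 genes were higher, and without untransfected replicate 1 1057 were lower.

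CGA (ENSG00000135346, GRCh38 chromosome 6, 87085498 to 87095406, minus strand) stood at 86.08, 67.37 and 76.53 TPM in transfected replicates 1 to 3 and at 10.88, 13.14 and 11.15 TPM in untransfected replicates 1 to 3. The groups did not overlap, and the lowest transfected value was several times the highest untransfected one. Means were 76.7 ± 9.36 and 11.7 ± 1.23 TPM (SD, n = 3 each here and below), a ratio of 6.54 and a log2 fold of 2.61 with SE 0.105, where folds are differences of log2(TPM + 1), transfected minus untransfected. CGA ranked second among protein-coding genes by log2 fold and 13 among all 16145 tested genes. By level it moved from rank 8995 of 18164 in untransfected to rank 1950 in transfected cells.

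The beta subunits with which CGA forms hormones, and the receptors of those hormones, were on a list of 14 genes (among them CGB3, LHB, FSHB, TSHB, LHCGR and TSHR); 0 of the 14 had values to analyse, so no level of a partner subunit can be set beside CGA.

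Among the granins, CHGB (chromogranin B; ENSG00000089199, chromosome 20, 5911430 to 5925361) stood at 7.97, 8.88 and 8.14 TPM in transfected and 2.52, 2.71 and 3.33 TPM in untransfected libraries. The groups did not overlap, with a ratio of means of 2.92 and a log2 fold of 1.28 with SE 0.106. SCG2 (secretogranin II, the precursor of secretoneurin; ENSG00000171951, chromosome 2, 223596940 to 223602503) stood at 2.66, 3.74 and 2.97 TPM in transfected and 0.44, 0.64 and 0.42 TPM in untransfected libraries. Its ratio of means, 6.25, was close to that of CGA, but its log2 fold of 1.45 with SE 0.134 was smaller because the added 1 TPM weighs more at low values. SCG2 had 1 TPM or more in transfected libraries only, so it entered the tested set through the group in which it was high.

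SCG3 (secretogranin III, which anchors chromogranins to the granule membrane; ENSG00000104112, chromosome 15, 51681353 to 51721031) stood at 3.93, 3.83 and 2.75 TPM in transfected and 1.59, 2.47 and 1.69 TPM in untransfected libraries. Transfected replicate 3 and untransfected replicate 2 lay close together, and the log2 fold was 0.63 with SE 0.157. SCG3 overlaps AC020892.1 and AC020892.2 on the opposite strand, and the strand setting of the counting is not given in the sources used here, so its values are uncertain. VGF (a nerve growth factor inducible granin; ENSG00000128564, chromosome 7, 101162509 to 101165593) stood at 2.36, 1.60 and 1.75 TPM in transfected and 1.09, 0.68 and 0.73 TPM in untransfected libraries, a log2 fold of 0.66 with SE 0.146. The groups of both genes were apart by less than 1 TPM.

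CHGA (chromogranin A, the granin most used as a neuroendocrine marker; ENSG00000100604, chromosome 14, 92923080 to 92935293) stood at 0.58, 0.35 and 0.81 TPM in transfected and 0.32, 0.48 and 0.18 TPM in untransfected libraries. It was below 1 TPM in every library, its groups overlapped and it was not in the tested set. Summed, CHGA, CHGB, SCG2, SCG3 and VGF came to 17.4 ± 0.991 TPM in transfected cells against 6.43 ± 0.515 TPM in untransfected ones, a ratio of 2.71. CHGB made the largest contribution in both groups.

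Of the processing genes, CPE (carboxypeptidase E, which removes basic residues from cut prohormones; ENSG00000109472, chromosome 4, 165361194 to 165498320) had the highest level of the 9 genes. It stood at 124.92, 133.33 and 136.06 TPM in transfected and 139.56, 140.67 and 117.11 TPM in untransfected libraries. The groups overlapped, and the log2 fold was -0.01 with SE 0.081. CPE overlaps the pseudogene HADHAP1 on the opposite strand and MIR578 on its own strand. PCSK1N (proSAAS, a granin-like inhibitor of prohormone convertase 1; ENSG00000102109, chromosome X, 48831094 to 48835633) stood at 20.73, 13.76 and 11.84 TPM in transfected and 15.41, 15.12 and 22.27 TPM in untransfected libraries. Its groups overlapped widely, with a log2 fold of -0.19 and SE 0.209. The highest values of the groups came from transfected replicate 1 and untransfected replicate 3, the libraries with the highest mitochondrial share. With both libraries left out the log2 fold was -0.24. Without mitochondrial and the 20 most abundant genes in the total it was -0.29, and PCSK1N was called in neither fit. The part of the mitochondrial share in these values was not tested. PCSK1 itself (prohormone convertase 1; ENSG00000175426, chromosome 5, 96390415 to 96434143) was listed at 0.03, 0.07 and 0.03 TPM in transfected libraries and at 0 in all 3 untransfected libraries, so the convertase that PCSK1N inhibits was at or near 0 throughout. It overlaps AC104123.1 on the opposite strand.

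In untransfected cells the order of levels was CPE, PCSK1N, CGA, CHGB, SCG3, VGF, SCG2, CHGA and PCSK1. Values of SCG2 and CHGA overlapped (0.42 to 0.64 and 0.18 to 0.48 TPM), the lowest CHGB value, 2.52 TPM, was just above the highest SCG3 value, 2.47 TPM, and the other neighbours did not overlap. In transfected cells CGA stood above PCSK1N, and the order was CPE, CGA, PCSK1N, CHGB, SCG3, SCG2, VGF, CHGA and PCSK1, with SCG3 and SCG2 overlapping. The 9 genes summed to 241.0 ± 8.17 TPM in transfected cells against 168.2 ± 10.0 TPM in untransfected ones, a ratio of 1.43. CGA made up 28.9% to 34.5% of that sum in transfected and 6.3% to 7.5% in untransfected libraries, while CPE went from 74.6% to 81.2% in untransfected to 50.1% to 57.2% in transfected libraries. Without CPE the sum was 109.6 ± 13.0 TPM against 35.8 ± 3.79 TPM, a ratio of 3.07.

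Of the 9 genes, 7 were tested, and 5 (CGA, CHGB, SCG2, SCG3 and VGF) were called higher, where 20% of all tested genes were. All transfected values lay above all untransfected values for 6 of the 9, these 5 and PCSK1, against 29.2% of tested genes. PCSK1, at or near 0 TPM throughout, was not in the tested set on which the 29.2% is based. These counts describe genes chosen with the comparison known, SCG2 having entered the tested set through the transfected libraries alone, and nothing is read from them. CHGA and PCSK1 did not reach the level needed for testing, and CPE and PCSK1N were not called. SCG3 lost its call when transfected replicate 1 or 2 or untransfected replicate 1 was left out (log2 folds of 0.56, 0.57 and 0.55). A fit without transfected replicate 1 and untransfected replicate 3, added once the values were known, did not call SCG3 and VGF (0.51 each) and called 3 genes, CGA (2.49), CHGB and SCG2.

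**Figure D1:**
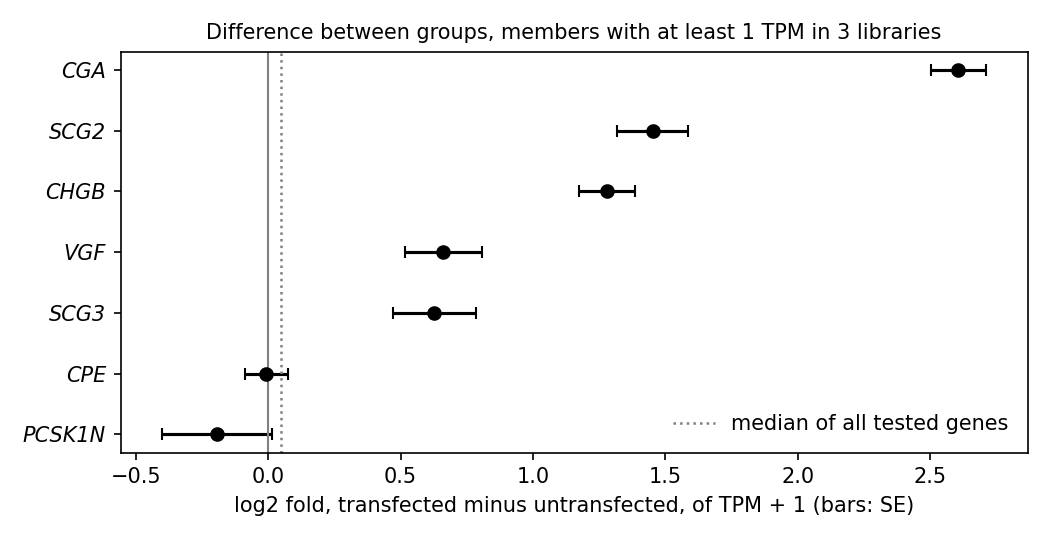
Log2 fold of TPM + 1, transfected minus untransfected, with its SE, for the 7 genes tested (3 libraries per group); the dotted line is the median of all tested genes, 0.05. CGA lies farthest right at 2.61, SCG2 and CHGB lie beyond 1, and CPE and PCSK1N lie at -0.01 and -0.19.

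The other genes of the pathway were taken from lists of genes with a known part in it. The lists were chosen with earlier results of these data known, so their counts are descriptions. Of 15 other prohormone processing enzymes 12 were tested, and 2 rose (16.7%, against 20% of all tested genes) and 3 fell (25%, against 10.2%), with a median log2 fold of -0.15 beside 0.05 for all tested genes. The count lower was 5 under median-ratio scaling and 6 without mitochondrial and abundant genes in the total. QPCTL, which cyclises amino-terminal glutamine in the Golgi, fell from 34.7 ± 0.557 to 23.5 ± 0.184 TPM (log2 fold -0.54, adjusted p = 0.000622), and MBTPS1, the site-1 protease, from 57.1 ± 2.38 to 46.7 ± 1.60 TPM (-0.28, adjusted p = 0.0094). The convertase gene PCSK5 rose from 3.35 ± 0.410 to 4.96 ± 0.0802 TPM (0.46, adjusted p = 0.011). QPCT, the granule counterpart of QPCTL, rose from 35.5 ± 4.54 to 44.7 ± 3.08 TPM (0.33, adjusted p = 0.0391), a call lost when transfected replicate 2 or 3 or untransfected replicate 1 or 3 was left out (adjusted p = 0.0507 to 0.127), which left 1 gene of the list higher. FURIN, the convertase of the constitutive pathway and the third gene that fell, went from 51.6 ± 1.25 to 43.1 ± 1.57 TPM (-0.25, adjusted p = 0.0123). PCSK2, the other main convertase of granules, stood at 0.28 to 0.40 TPM in transfected and 0.08 to 0.23 TPM in untransfected libraries and was too low to be tested. FURIN and PCSK2 were named after their values were seen. QPCTL, QPCT and PCSK5 overlap genes on the opposite strand, and MBTPS1 overlaps 1 on its own strand.

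Of 70 peptide hormone and neuropeptide precursor genes 22 were tested, and 6 rose: NPW, TAC1, ADM, STC1, STC2 and POMC (27.3%, against 20% of all tested genes). POMC stood at 1.02 to 1.83 TPM in transfected and 0.70 to 0.84 TPM in untransfected libraries. It therefore entered the tested set only through the group in which it was high. By limma 0 fell after adjustment (1 under median-ratio scaling and 2 without mitochondrial and abundant genes in the total), and 1 had an unadjusted p under 0.05; the median log2 fold was 0.14. TAC1, the precursor of substance P and neurokinin A, stood at 6.25, 4.80 and 4.37 TPM in transfected and 2.94, 3.30 and 2.29 TPM in untransfected libraries (log2 fold 0.67, adjusted p = 0.0114). ADM, the gene of the vasodilator adrenomedullin, rose from 10.4 ± 1.33 to 15.7 ± 0.289 TPM (0.56, adjusted p = 0.00438), and STC1, which encodes the glycoprotein hormone stanniocalcin 1, from 1.74 ± 0.127 to 2.85 ± 0.0503 TPM (0.50, adjusted p = 0.00735). NPW, the neuropeptide W gene, was at 0.817 ± 0.505 and 2.15 ± 0.481 TPM (0.82, adjusted p = 0.0204); its call was lost without transfected replicate 1 or 2 or untransfected replicate 1 (adjusted p = 0.0553 to 0.0652). GAL, the galanin gene, named after its values were seen, stood at 68.72, 66.81 and 67.38 TPM in transfected and 66.69, 57.21 and 54.63 TPM in untransfected libraries and did not pass. Without transfected replicate 3 or untransfected replicate 3, 1 precursor was called lower.

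Genes of regulated exocytosis and of the vesicle membrane were lower more than higher: of 36 tested (54 listed), 13 fell (36.1%, against 10.2% of all tested genes) and 5 rose (13.9%, against 20%), with a median log2 fold of -0.15. The vesicle SNARE gene VAMP1 stood at 30.59, 31.92 and 33.97 TPM in transfected and 53.32, 53.85 and 53.86 TPM in untransfected libraries (log2 fold -0.72, adjusted p = 0.000292). Its paralog VAMP2, the main v-SNARE of regulated secretion, stood at 52.69, 53.65 and 54.05 TPM in transfected and 77.45, 78.06 and 78.78 TPM in untransfected libraries (-0.54, adjusted p = 0.000461). The values within each group of VAMP2 spanned less than 2 TPM and the groups were more than 20 TPM apart. RAB3D, a small GTPase of secretory granules, fell from 12.6 ± 0.858 to 7.41 ± 0.910 TPM (-0.70, adjusted p = 0.0021), and BAIAP3, a Munc13-related gene with a role in dense-core vesicle fusion and recycling, from 5.24 ± 0.426 to 2.86 ± 0.125 TPM (-0.69, adjusted p = 0.00176). VAMP1, RAB3D and BAIAP3 overlap genes on the opposite strand, and RAB3D and VAMP2 overlap genes on their own strand.

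The 5 exocytosis genes that rose, named after their values were seen, were SYP, SYT11, SNAP25, CPLX1 and STX1A. The vesicle protein gene SYP rose from 5.34 ± 0.301 to 8.13 ± 0.584 TPM (log2 fold 0.53). The target SNARE gene SNAP25 was at 0.93 ± 0.060 TPM in untransfected and 1.45 ± 0.121 TPM in transfected cells. SNAP25 had 1 TPM or more in transfected libraries only, so it entered the tested set through the group in which it was high. The count of 5 was 2 without transfected replicate 1, 2 or 3 or untransfected replicate 1 or 2, and 2 under both other scalings. The count lower was 10 to 15 with single libraries left out and 17 under both other scalings. PTPRN, a granule membrane protein gene, was below 1 TPM in every library.

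Of 24 genes of dense-core vesicle biogenesis, all tested, 5 rose (20.8%, against 20% of all tested genes) and 5 fell (20.8%, against 10.2%), with a median log2 fold of -0.01. Without mitochondrial and abundant genes in the total, 2 were higher and 8 lower. ARFIP2, which binds ARF-like GTPases at the trans-Golgi, rose from 47.2 ± 1.68 to 64.6 ± 0.987 TPM (0.44, adjusted p = 0.00118) and RUNDC1 from 18.8 ± 1.06 to 24.1 ± 0.657 TPM (0.34, adjusted p = 0.00762). HID1, needed for granule maturation at the trans-Golgi, fell from 19.5 ± 0.731 to 15.5 ± 1.25 TPM (-0.32, adjusted p = 0.0188), and RAB2B from 46.9 ± 0.753 to 38.1 ± 4.06 TPM (-0.30, adjusted p = 0.0251). The HID1 call was lost without transfected replicate 2 or untransfected replicate 1 (adjusted p = 0.0654 and 0.0543) and the RAB2B call without transfected replicate 1 or 2 or untransfected replicate 1 or 2 (0.0672 to 0.0832). The count lower was 0 without transfected replicate 2 or untransfected replicate 1, 1 without untransfected replicate 2 and 2 without transfected replicate 1 or 3. The count higher was 2 without transfected replicate 2 or 3 or untransfected replicate 1, and 3 without untransfected replicate 3. ARFIP2, HID1 and RAB2B overlap genes on the opposite strand.

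The constitutive secretory pathway, which all cells use, was listed beside these genes for comparison. Of 45 genes tested 9 rose (20%, as over all tested genes) and 2 fell (4.44%, against 10.2%), with a median log2 fold of 0.07. Without mitochondrial and abundant genes in the total, 7 were higher and 7 lower, with a median of -0.02. The coat gene SEC24B rose from 42.8 ± 3.77 to 58.6 ± 2.98 TPM (adjusted p = 0.00428), the signal recognition particle gene SRP68 from 78.8 ± 5.33 to 105.0 ± 2.40 TPM (adjusted p = 0.00279), and SSR3 of the translocon from 86.0 ± 11.1 to 116.1 ± 8.36 TPM (adjusted p = 0.0142), while the KDEL receptor gene KDELR3 fell from 50.6 ± 2.85 to 33.1 ± 0.210 TPM (adjusted p = 0.000609). The SSR3 call was lost without transfected replicate 2 or 3 (adjusted p = 0.0606 and 0.0503). The count higher was 2 without transfected replicate 2 or 3 and 4 without untransfected replicate 1, and 1 gene was lower without transfected replicate 1 or 2 or untransfected replicate 1 or 2. SEC24B, SRP68 and KDELR3 overlap genes on the opposite strand.

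Of 27 regulators of neuroendocrine identity 15 were tested, and 1 rose and 1 fell (6.67% each, against 20% and 10.2% of all tested genes). PAX6 rose (8.47 ± 0.448 to 10.7 ± 0.265 TPM, adjusted p = 0.0175) and NKX2-2 fell (11.8 ± 1.19 to 9.15 ± 1.03 TPM, adjusted p = 0.044). The PAX6 call was lost without transfected replicate 2 or 3 (adjusted p = 0.0659 and 0.0628) and the NKX2-2 call without transfected replicate 2 or 3 or untransfected replicate 1 or 3 (0.0941 to 0.142); without untransfected replicate 2, or without mitochondrial and abundant genes in the total, the count lower was 2. Both overlap genes on the opposite strand. REST, which represses neuronal and granin genes in other cells, stood at 17.46, 19.39 and 19.01 TPM in transfected and 20.97, 20.48 and 16.14 TPM in untransfected libraries, with overlapping groups (log2 fold -0.03, SE 0.104). INSM1, a zinc finger factor of neuroendocrine cells, was at 4.04 ± 0.0777 and 3.41 ± 0.350 TPM in transfected and untransfected cells and did not pass. REST and INSM1 were named after their values were seen.

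Of 35 tested genes on the list of factors that act on the CGA promoter and of cyclic AMP signalling, 11 rose (31.4%, against 20% of all tested genes) and 1, the homeobox gene MSX1, fell (2.86%, against 10.2%), with a median log2 fold of 0.14. The AP-1 genes FOS and JUN rose from 2.41 ± 0.741 to 8.12 ± 0.959 TPM (log2 fold 1.44, adjusted p = 0.000906) and from 247.1 ± 9.96 to 406.9 ± 23.1 TPM (0.72, adjusted p = 0.000364). CREBBP, the coactivator that binds phosphorylated CREB, rose from 26.7 ± 0.776 to 43.1 ± 2.30 TPM (0.67, adjusted p = 0.000484), and the CRE-binding factor gene CREB5 from 28.1 ± 0.290 to 44.8 ± 2.04 TPM (0.65, adjusted p = 0.00042). CREBBP and CREB5 overlap genes on the opposite strand. CREB1 itself stood at 20.64, 24.85 and 22.20 TPM in transfected and 20.46, 19.82 and 18.75 TPM in untransfected libraries and did not pass (0.19, SE 0.082). Of other genes on the list, named after their values were seen, CREM, whose own promoter holds a CRE, rose from 14.5 ± 1.41 to 21.7 ± 2.16 TPM (adjusted p = 0.00517), and GATA2 stood at 17.28, 15.13 and 15.87 TPM in transfected and 16.78, 16.24 and 16.05 TPM in untransfected libraries and did not pass. PRKAR1A (log2 fold 0.045, adjusted p = 0.678) and PDE4A (-0.225, adjusted p = 0.0934) on this list also hold a CRE and did not pass. Leaving out untransfected replicate 3 gave 3 lower genes. The count lower was 5 under median-ratio scaling and 6 without mitochondrial and abundant genes in the total, and the count higher was 9 under both.

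The CRE was also counted over all tested genes, leaving out the 10 genes described. Of 438 tested genes with at least 1 full CRE in a promoter window, 132 were called higher (30.1%) and 29 lower (6.62%), with a median log2 fold of 0.14. Of 10790 with a window and no CRE, 2230 were higher (20.7%) and 1125 lower (10.4%), with a median of 0.05. Of the 438, 7 (1.60%) had a log2 fold above 1, against 0.778% of genes without a CRE, and the largest, 2.25 for H4C5, was below the 2.61 of CGA. These 7, named after their values were seen, were the histone genes H4C5, H4C8, H3C2 and H2BC12, the phosphatase subunit gene PPP1R15A, the homeobox gene IRX4 and the synaptic adhesion gene LRRTM2. IRX4 stood at 0.37 to 0.82 TPM in untransfected libraries, so it entered the tested set only through the group in which it was high. Of 14 tested genes with at least 2 CREs, as in CGA, 4 were higher and 2 lower, and 0 had a log2 fold above 1; DDX10, an RNA helicase gene, was the highest at 0.69. These shares are descriptions, and genes with a CRE differ from others in ways that were not matched.

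The 4 nearest tested genes around CGA on chromosome 6 differed far less. ZNF292, a zinc finger gene 57427 bp beyond the 5′ end of CGA, was at 16.7 ± 2.31 and 14.9 ± 1.63 TPM in transfected and untransfected cells and did not pass (log2 fold 0.15, SE 0.116). An RNA antisense to it, ENSG00000272008, rose from 0.707 ± 0.140 to 1.44 ± 0.148 TPM (0.52, adjusted p = 0.0147). It overlaps ZNF292, and its call was lost without transfected replicate 2 or untransfected replicate 1 (adjusted p = 0.0584 and 0.0512). Its untransfected values ran from 0.55 to 0.82 TPM, so this RNA entered the tested set only through the group in which it was high. On the other side, 1406750 and 1441706 bp away, SNHG5 rose from 2.38 ± 0.229 to 3.56 ± 0.110 TPM (0.43, adjusted p = 0.0129) and SYNCRIP from 52.2 ± 6.64 to 64.7 ± 4.24 TPM (0.31, adjusted p = 0.0461). The SNHG5 call was lost without transfected replicate 3 (adjusted p = 0.0513) and the SYNCRIP call without transfected replicate 2 or 3 or untransfected replicate 2 or 3 (0.0521 to 0.15).

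Over 10730 protein-coding genes whose group mean reached 5 TPM in either group, the genes most like CGA over the 6 libraries by Pearson's r of log2(TPM + 1) were CCDC86 (0.9988), H2BC5 (0.9988), RRP12 (0.9985), PPP1R15A (0.9984) and PSMD8 (0.9983). Their ratios of means ran from 1.16 for PSMD8 to 5.08 for H2BC5, so likeness in pattern was not likeness in size. Among the granule genes r with CGA was 0.98 for CHGB, 0.97 for SCG2, 0.92 for VGF, 0.88 for SCG3, -0.29 for PCSK1N and -0.04 for CPE. With 6 libraries in 2 groups, r mainly reflects the difference between the groups.

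Marker lists were read to see whether cell types that make CGA or granules were present. Rows were found for 5 of 16 trophoblast, 2 of 12 pituitary and 3 of 12 chromaffin and sympathetic markers. They were found for 9 of 14 general neuroendocrine and neuronal and 13 of 14 kidney lineage and epithelial markers. Markers without a row have no value here and cannot be read as low, and the sums below cover only markers with a row. Of 16 trophoblast markers 1, PLAC1, was tested and did not pass, at 28.3 ± 1.99 and 31.0 ± 2.82 TPM in transfected and untransfected cells; GCM1, which drives syncytiotrophoblast formation, was at 0.69, 0.19 and 1.0 TPM in transfected and 0.06, 0.20 and 0 TPM in untransfected libraries, and ERVW-1 was at or near 0. Of 12 pituitary markers TBX19 and LHX4 were tested and neither passed. Of 12 chromaffin and sympathetic markers 3 were tested: GATA3 rose (34.9 ± 4.62 to 53.9 ± 7.87 TPM), PNMT fell (6.33 ± 0.866 to 4.24 ± 0.421 TPM) and HAND2 did not pass. The summed levels of the lists ran from 27.5 to 31.3 TPM in transfected and 28.3 to 34.1 TPM in untransfected libraries for trophoblast, 8.70 to 9.34 and 7.87 to 9.39 TPM for pituitary, and 59.0 to 72.2 and 41.4 to 52.4 TPM for chromaffin markers. Of 14 general neuroendocrine and neuronal markers 8 were tested, of which SYP, NCAM1, NEFL and NEFM rose and ENO2 fell; the list summed to 658.7 to 699.9 and 621.4 to 685.7 TPM, most of it UCHL1. Of 14 kidney lineage and epithelial markers 11 were tested, of which EMX2, SALL1, EYA1 and VIM rose and CDH1 fell. Sums of this list ran from 809.3 to 826.7 and 645.0 to 699.2 TPM, most of it VIM. VIM alone rose from 422 ± 21.3 to 554.5 ± 4.93 TPM, which is most of the gap between these sums. The keratin genes KRT8 and KRT18 did not pass, so the sums do not show that the list rose as a set. Over all tested genes 20% were called higher and 10.2% lower, and nothing is read from the counts of markers called. In bulk RNA, more cells expressing a gene and more RNA per cell cannot be told apart, and the part of these markers in the levels of CGA and the granins was not tested.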

How the data were processed

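RNA was measured in 6 libraries (3 transfected, 3 untransfected) made from total RNA with a stranded kit and read as 75 nt pairs, per the labels' protocols. The deposited table holds TPM per gene as calculated by the authors; STAR and GRCh38 are named in the submitters' processing notes, while for the counter, strand setting, annotation and gene filter the sources used here give nothing. The 18298 rows hold 18164 distinct Ensembl IDs; 134 repeats with identical values were dropped. TPM keep no depth, so low values have no counting interval, and every value is a share of a fixed total, so it also moves when other transcripts do. Names came from a name table (18139 IDs matched), positions and overlaps from GENCODE release 29 on GRCh38, and promoters from RefSeq (GRCh38.p14).

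Genes that reached 1 TPM in 3 or more libraries were compared on log2(TPM + 1) with limma 3.58.1 in R 4.3.3 (group as the only term, mean-variance trend, two-sided, Benjamini-Hochberg over all tested genes, threshold 0.05), after the script was tested on simulated data. Fits without single libraries used the same tested genes. The main fit has no block because the labels do not say that a number marks a shared culture or day. Deviations from the group means of same-numbered libraries had correlations of -0.184, 0.107 and -0.163. The highest correlation of any pair was 0.309, for transfected replicate 1 and untransfected replicate 3. The genes and lists were chosen with earlier results of these data known. From each list up to 4 genes that passed were named by size of fold, or, where fewer than 2 passed, the 2 with the highest TPM. Alternatives were pseudocounts of 0.1 and 5, no filter, a filter of 5 TPM, median-ratio scaling, rescaling without mitochondrial and the 20 most abundant genes, the replicate block, and leaving out each library; leaving out 2 libraries together was added after the data were seen.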

Additional observations from a re-analysis of the deposited data

How the results depend on the processing

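No fold of the 5 called granule genes or of the 30 other genes refitted turned its direction while called, under the alternatives run; TPM without counts limit what can be said of genes near 1 TPM. Of 413 refits of 30 genes named from the lists and around CGA, 377 stayed on the same side of the threshold and 36 lost the call. Pseudocounts changed sizes most: with 0.1 the log2 folds were 1.52 for CHGB, 2.43 for SCG2 and 1.11 for VGF, and with 5 they were 2.28 for CGA, 0.76 for CHGB, 0.56 for SCG2, 0.30 for SCG3 and 0.24 for VGF. With the filter of 5 TPM 2 granule genes, 1 processing enzyme and 2 precursors were called higher and 2 promoter factors lower, since fewer genes were tested; with no filter 3 biogenesis genes were higher, and NKX2-2 and SYNCRIP lost their calls. Median-ratio scaling gave 2871 genes lower, with 5 processing enzymes, 1 precursor and 5 promoter factors lower and 2 exocytosis genes higher. Without mitochondrial and the 20 most abundant genes 3216 were lower, with 6 processing enzymes, 2 precursors, 8 biogenesis genes, 7 constitutive genes, 2 neuroendocrine regulators and 6 promoter factors lower, 2 exocytosis and 2 biogenesis genes higher, and SCG2 at 1.65; apart from the scaling itself the cause was not tested.

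With the replicate block, although the labels do not say that numbers pair the libraries, 2392 genes were higher and 1137 lower. In the lists, 1 processing enzyme, 2 exocytosis genes, 2 biogenesis genes, 3 constitutive genes and 0 neuroendocrine regulators were then higher, and 1 precursor, 1 biogenesis gene, 1 constitutive gene and 0 neuroendocrine regulators lower.

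With single libraries left out, the folds ran from 2.52 to 2.69 for CGA, 1.22 to 1.37 for CHGB, 1.35 to 1.54 for SCG2, 0.55 to 0.76 for SCG3, 0.55 to 0.76 for VGF, -0.41 to -0.02 for PCSK1N and -0.09 to 0.04 for CPE. Counts ran from 1973 to 2953 genes higher and 992 to 2046 lower. Counts higher and lower were 4 to 5 and 0 to 0 of the granule genes, 1 to 2 and 2 to 4 processing enzymes, 4 to 6 and 0 to 1 precursors, 2 to 4 and 10 to 15 exocytosis genes, 2 to 4 and 0 to 5 biogenesis genes, 2 to 9 and 1 to 3 constitutive genes, 0 to 1 and 0 to 2 neuroendocrine regulators, and 8 to 12 and 1 to 3 promoter factors. With transfected replicate 1 and untransfected replicate 3 left out, 3581 genes were higher and 2133 lower; 3 granule genes, 3 exocytosis genes, 14 constitutive genes and 2 neuroendocrine regulators were higher, and 4 constitutive genes and 4 promoter factors lower.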
